A study of Mus musculus with 15 samples.

Results

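The Zscan4 genes are a family of near-identical copies on mouse chromosome 7, and the members described here were Zscan4b, Zscan4c, Zscan4d, Zscan4e and Zscan4f, 5 of the 46517 genes in the count tables. They were chosen on the difference between knockout (KO) and control RNA in the samples below, so their levels in that contrast are given as a description, with no test. The same choice took in the reduced representation bisulfite sequencing (RRBS) positions of a 300 kb interval of chromosome 7 (GRCm38) that holds Zscan4b, Zscan4c and Zscan4d. There 182 positions had a call in any sample, the first at 10910419 and the last at 11196477.

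Kidneys of C57BL/6 mice were studied at postnatal day 0 (P0) and at 6 weeks. Controls at P0 carried the floxed Dnmt1 allele (Dnmt1 f/f), KO samples at P0 were Six2Cre Dnmt1 f/f, and the adults of 6 weeks were wild type. Dnmt1 encodes the methyltransferase that copies CpG methylation to new DNA strands, and both P0 groups thus carried the floxed allele while the KO group alone carried the Cre. Six2 marks nephron progenitors, so the Cre acts in the nephron lineage, and the other lineages of the kidney keep an intact gene. The labels name Six2+ cells as the source, but the extraction protocol names whole kidneys for DNA. Poly A RNA was sequenced in 3 controls and 3 KO samples, and RRBS in 3 samples of each of the 3 groups. Nothing in the labels ties a sample to 1 animal, so p-values measure the spread between these samples, which may be technical.

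Zscan4 proteins hold a SCAN domain and zinc fingers. Their genes are switched on in the embryo at the 2-cell stage, when the zygotic genome starts to be read, and in a small, changing fraction of mouse embryonic stem cells. There they are known for a role in telomere maintenance by recombination. The transcription factor Dux switches on Zscan4 together with a wider 2-cell programme, and the proteins Dppa2 and Dppa4 act before Dux. The kidney is not known as a site of this programme.

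In the RefSeq annotation of GRCm38, Zscan4b (ENSMUSG00000095339.1) lay at 10900740 to 10905050 on the minus strand and Zscan4c (ENSMUSG00000054272.5) at 11005745 to 11010547 on the plus strand. Zscan4d (ENSMUSG00000090714.8) lay at 11161643 to 11166148 on the minus strand. Zscan4e (ENSMUSG00000095936.2), annotated by RefSeq as a pseudogene, lay at 11306369 to 11310682, and Zscan4f (ENSMUSG00000070828.8) at 11397915 to 11402318 on the plus strand. The last of these genes and Zscan4e therefore lie outside the 300 kb interval, and the methylation of a wider interval that takes in all 5 members is given beside it.

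The 250 bases before each annotated start are shown for the members with an entry in the RefSeq promoter table (GRCm38.p6), because the RNA of these genes was high in the same samples and the copies share most of these letters. Each runs 5′ to 3′ on the strand of its gene and ends at the base before the start, and capitals mark CpG dinucleotides. The windows are chr7:10905051-10905300 (minus strand) for Zscan4b, chr7:11005495-11005744 (plus) for Zscan4c, chr7:11166149-11166398 (minus) for Zscan4d and chr7:11397665-11397914 (plus) for Zscan4f.
Zscan4b: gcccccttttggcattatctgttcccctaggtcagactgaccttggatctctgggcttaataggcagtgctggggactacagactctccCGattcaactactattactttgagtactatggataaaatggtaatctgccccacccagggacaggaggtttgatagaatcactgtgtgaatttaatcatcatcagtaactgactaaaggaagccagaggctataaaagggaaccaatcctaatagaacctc
Zscan4c: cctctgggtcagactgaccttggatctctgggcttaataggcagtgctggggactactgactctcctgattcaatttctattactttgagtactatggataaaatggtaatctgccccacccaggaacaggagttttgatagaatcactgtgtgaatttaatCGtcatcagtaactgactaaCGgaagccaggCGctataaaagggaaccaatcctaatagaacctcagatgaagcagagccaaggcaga
Zscan4d: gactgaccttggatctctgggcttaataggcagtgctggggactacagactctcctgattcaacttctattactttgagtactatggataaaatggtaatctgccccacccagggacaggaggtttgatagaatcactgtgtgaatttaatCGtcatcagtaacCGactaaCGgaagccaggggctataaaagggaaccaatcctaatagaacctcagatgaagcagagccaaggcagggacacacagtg
Zscan4f: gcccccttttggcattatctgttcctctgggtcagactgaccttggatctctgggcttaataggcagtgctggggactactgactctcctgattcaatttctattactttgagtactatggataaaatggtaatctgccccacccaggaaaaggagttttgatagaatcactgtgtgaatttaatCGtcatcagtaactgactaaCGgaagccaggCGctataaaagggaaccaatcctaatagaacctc

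The 4 windows were between 94.7% and 99.6% identical where they aligned. Zscan4c and Zscan4f were closest, with 1 different base in 227 aligned bases, and Zscan4b and Zscan4c were farthest apart, with 12 in 227. Each window was poor in CpG, with 1 CpG before Zscan4b and 3 before each of the other members. Over 32851 windows of the same length the median was 6, and 37.8% of windows held at most 3.

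The letters TATAAA, searched on both strands and known from the core promoters of many genes, occurred 1 time in each member window and in 12.4% of all windows. Their first base lay 31 bases before the annotated start of Zscan4b and of Zscan4f, 54 before that of Zscan4c and 65 before that of Zscan4d. The letters TGATTCA, part of the binding sequence known for Dux, occurred 1 time each before Zscan4c, Zscan4d and Zscan4f and not before Zscan4b, against 2.43% of all windows (both strands). TGCACAC, the binding motif known for the Zscan4 protein itself, was in none of the 4 windows and in 3.67% of all windows. CCGG, the recognition site of the enzyme used in RRBS, was also in none of the 4 and in 47.1% of all windows. Of the motifs searched, CCGG alone contains another, the CpG, and a match is a description of the letters alone.

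Before the members, the targeted gene was examined as a check of the labels. Its counts were 5908, 4826 and 6921 in the 3 controls, and the 3 KO samples had 3526, 3378 and 2467. Scaled to counts per 1e6 gene reads with TMM (CPM), Dnmt1 had 174.8 ± 16.6 CPM among controls against 104.8 ± 9.57 CPM among KO samples (SD, n = 3), a log2 fold change of -0.74 (SE 0.12, edgeR adjusted p = 0.00577). Total gene counts were 26773937 to 34102567 per RNA library. Reads aligned to more than 1 place were set aside by the counter and made up 14.0% to 24.6% of all reads in controls and 22.5% to 28.0% in KO samples. RNA control 3 stood apart in markers of the proximal tubule, a segment of the nephron. The summed CPM of these 4 markers ran from 1170 to 3350 in controls, and control 3 gave the highest value.

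All 5 members were at or near 0 in the controls and were read 40 to 2014 times in each KO sample. Zscan4d had 2, 0 and 0 counts in control 1, 2 and 3. KO 1, KO 2 and KO 3 had 1865, 1140 and 2014, and values are given in this sample order throughout. In CPM the KO values were 58.1, 37.4 and 76.5, with a mean of 57.3 ± 19.6 (SD, n = 3). Every KO sample lay far above every control, and KO 2 was the lowest of the 3.

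Zscan4f was read in the same way, with 1, 0 and 0 control counts against 997, 436 and 1140 KO counts. Its KO values were 31.1, 14.3 and 43.3 CPM (mean 29.6 ± 14.6). Zscan4c had no count in any control and 1043, 135 and 1054 in KO samples. KO 2 thus held far fewer Zscan4c reads than the other two KO samples, at 4.43 CPM against 32.5 and 40.1 (mean 25.7 ± 18.8).

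Zscan4b also had no control count and gave 729, 460 and 706 counts in KO samples, or 22.7, 15.1 and 26.8 CPM (mean 21.5 ± 5.96). This member was the most even over the KO samples, with a coefficient of variation of 27.7%, against 34.2% for Zscan4d, 49.4% for Zscan4f, 73.3% for Zscan4c and 81.0% for Zscan4e. Zscan4e, the annotated pseudogene, was at 0 in all controls and had 343, 40 and 438 counts in KO samples. Its KO values were 10.7, 1.31 and 16.6 CPM (mean 9.55 ± 7.73), again lowest in KO 2.

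**Figure D1:**
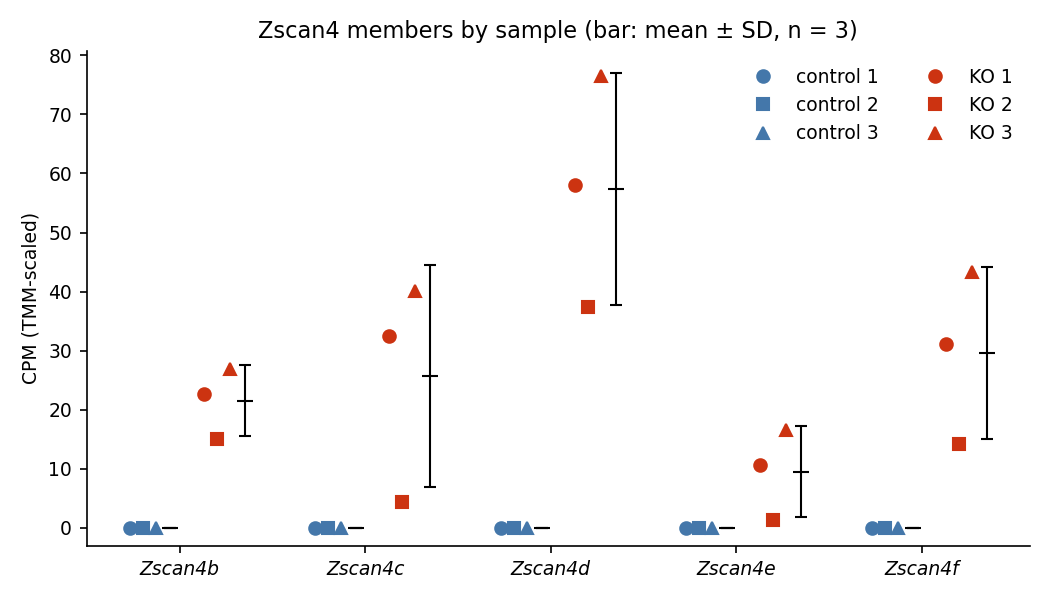
TMM-scaled CPM of the 5 Zscan4 members (vertical axis) in 3 control (blue) and 3 KO (red) P0 kidney samples, with marker shape giving the replicate number and the bar the mean ± SD (n = 3). Controls sit at or near 0 for each member, and KO 2 is the lowest KO sample each time. Values are not divided by gene length, so heights are not compared between genes.

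Because a control group at 0 gives no ratio, a floor of 3 counts over the group was used for a lower bound. On that scale the KO level was at least 841-fold higher than the controls for Zscan4c, at least 714-fold for Zscan4b and at least 309-fold for Zscan4e. Zscan4f had 1 control count and a ratio of 2909 (95% counting interval 522 to 114900), and Zscan4d had 2 and a ratio of 2837 (785 to 23430). These intervals are exact binomial and, like the floor, cover counting error only. Such a pattern was not limited to the members: of 18964 genes with 0 counts in all controls, 29 had at least 100 counts in every KO sample, and 4145 of the 46517 genes (8.91%) had every KO sample above every control.

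Summed over the 5 members, control counts were 3, 0 and 0 and KO counts 4977, 2211 and 5352. The summed CPM rose from 0.0305 ± 0.0528 to 143.6 ± 66.2 (control and KO mean ± SD, n = 3), a ratio of 4726 (95% counting interval 1617 to 22920). In bulk RNA, a few cells with much Zscan4 RNA and many cells with little cannot be told apart, and neither can fewer cells of a type and less RNA per cell.

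Levels were compared between members only per kb of gene span, since transcript lengths were not used here. The copies are near-identical and reads with several alignments were set aside, so the order of members below is uncertain. The KO mean was 12.7 CPM per kb for Zscan4d, 6.71 for Zscan4f, 5.34 for Zscan4c, 4.997 for Zscan4b and 2.21 for Zscan4e. Zscan4d was the highest of the 5 in every KO sample, at 12.9, 8.29 and 17.0 CPM per kb, and Zscan4e was the lowest. Between these levels, Zscan4f, Zscan4c and Zscan4b did not keep 1 order. Zscan4c was above Zscan4b in KO 1 and KO 3, at 6.77 against 5.27 and 8.34 against 6.22 CPM per kb. In KO 2 it was below Zscan4b, at 0.922 against 3.50. Zscan4f was likewise above Zscan4b in KO 1 and KO 3, at 7.05 against 5.27 and 9.84 against 6.22, and below it in KO 2, at 3.25 against 3.50. Zscan4f was above Zscan4c in all 3 KO samples, at 7.05 against 6.77, 3.25 against 0.922 and 9.84 against 8.34. The order of Zscan4b relative to Zscan4c and Zscan4f thus changed between KO samples, while that of Zscan4f and Zscan4c did not.

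The members did not fall together in KO 2. Against the mean of KO 1 and KO 3, the level in KO 2 was 1.64-fold lower for Zscan4b, 1.80-fold for Zscan4d, 2.60-fold for Zscan4f, 8.20-fold for Zscan4c and 10.4-fold for Zscan4e. As a result the make-up of the family's reads differed between libraries.

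Of all member reads, Zscan4c took 21% in KO 1 (95% exact interval 19.8% to 22.1%), 6.11% in KO 2 (5.14% to 7.19%) and 19.7% in KO 3 (18.6% to 20.8%). For Zscan4e these shares were 6.89%, 1.81% and 8.18%, with an interval of 1.30% to 2.46% in KO 2. Both genes thus held a smaller share in KO 2, beyond counting error. The shares of Zscan4d were 37.5%, 51.6% and 37.6% and those of Zscan4b 14.6%, 20.8% and 13.2%, both highest in KO 2. Zscan4f kept near the same share, at 20%, 19.7% and 21.3%. Measured against Zscan4d reads, Zscan4c gave 0.559, 0.118 and 0.523 reads per Zscan4d read and Zscan4e gave 0.184, 0.0351 and 0.217.

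**Figure D2:**
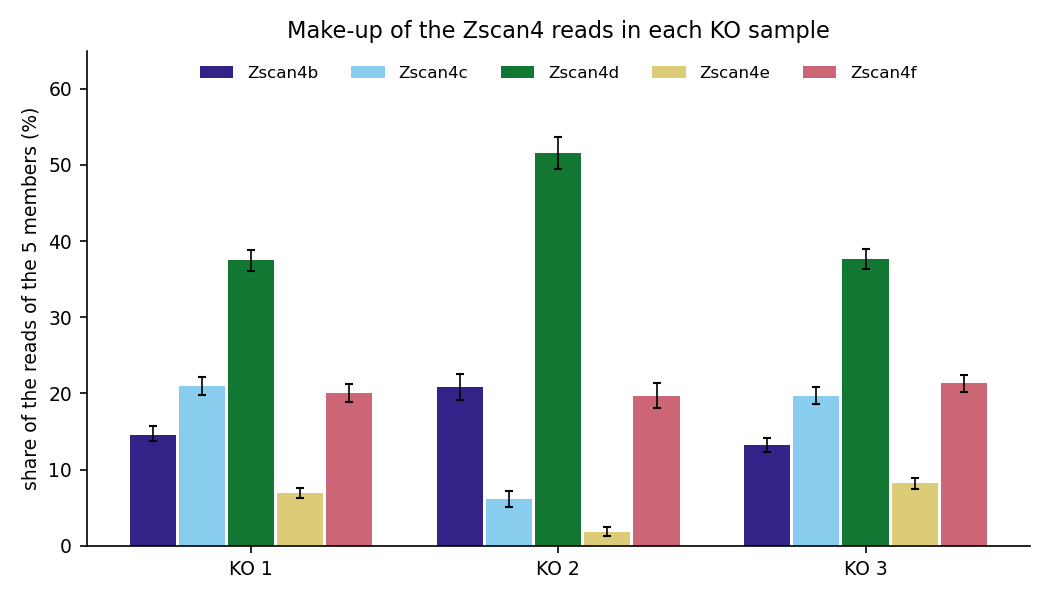
Share of the summed reads of the 5 Zscan4 members (vertical axis, percent) that each member took in KO samples 1 to 3, with 95% exact binomial intervals that cover counting error only. Zscan4c and Zscan4e are at 6.11% and 1.81% in KO 2, where Zscan4d is at 51.6%.

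All genes that were silent in controls, the members among them, were set beside this. Among 132 genes with at most 3 counts over the controls and at least 100 over the KO samples, KO 2 was the lowest KO sample for 63.6%, and the median ratio of KO 2 to the mean of KO 1 and KO 3 was 0.747. For Zscan4d this ratio was 0.555, and 23 of the 132 genes (17.4%) were at or below it, Zscan4c, Zscan4d, Zscan4e and Zscan4f among them. The Zscan4c ratio was 0.122, and 4 genes (3.03%) were at or below it, namely Zscan4c, Zscan4e, Gm15930 and Gm43940, of which the last 2 were named after their values were seen. Because the copies are near-identical and reads with several alignments were set aside, counts of single members are uncertain, and how far the alignment sets these shares was not tested.

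Genes of the 2-cell programme outside the Zscan4 family were taken next. Over all genes, 18132 were tested with edgeR's quasi-likelihood test, and 6.36% were called higher and 8.23% lower in KO at a Benjamini-Hochberg adjusted p under 0.05, with a median log2 fold change of -0.001. Of 37 listed 2-cell genes, 35 were in the count tables, 26 passed the filter on low counts, 23 rose and 0 fell. The filter admits genes through their KO counts, and 25 of the 35 had no count in any control. The median log2 fold change of the 26 was 9.77 as fitted, and 7.37 with the 16 genes at 0 in all controls set at the floor of 3 counts. This list was chosen with results of these data known, so its direction is not independent evidence. Summed over the list, controls had 16 to 27 CPM and the KO samples 247, 247 and 296 CPM, with KO 2 level with KO 1, unlike the members.

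Duxf3, the mouse Dux gene of the count tables, had no control count and 19, 28 and 18 counts in KO samples. It rose to 0.731 ± 0.168 CPM (SD, n = 3), at least 24.5-fold above the floor (edgeR adjusted p = 0.00239). KO 2 had the most Duxf3 counts, but these counts are few and their differences between KO samples were not tested. Zfp352, a zinc finger gene and marker of the 2-cell stage, rose from 0 counts to 89, 49 and 95 (at least 87.8-fold, adjusted p = 0.0012).

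The 8 listed genes with the smallest p came from several families. Usp17le and Usp17lb belong to the Usp17-like deubiquitinases. Usp17le had 0 counts in all controls and 965, 801 and 929 in KO samples, or 30.5 ± 4.54 CPM (at least 1016-fold). Usp17lb had 0 and then 347, 333 and 349 counts (at least 388-fold). Pramef25, of the Prame-like family, had 0, 1 and 1 control counts and 1094, 904 and 942 KO counts, a ratio of 1662 (95% counting interval 460 to 13730). These 3 genes were nearly level over the KO samples.

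AF067061 and Tmem92 were at 0 in all controls and rose to 26.9 ± 2.90 and 15.3 ± 3.19 CPM. Gm20767 reached 448, 789 and 551 KO counts after 0, 1 and 0 in controls, so KO 2 was its highest library. Gm12794 had 0, 0 and 1 control counts and 526, 375 and 440 KO counts, and Gm8994 had 2, 0 and 2 and then 327, 317 and 256. The edgeR adjusted p of these 8 genes ran from 6.62e-06 to 0.000108. The counts for Usp17-like, Prame-like and Tdpoz genes also come from families of like copies and carry the same uncertainty.

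Not every listed gene moved. Pramef12, Sp110 and Arg2 did not pass the test, with log2 fold changes of -0.59, 0.57 and 0.52 (edgeR adjusted p = 0.451, 0.284 and 0.211), and each had reads in every control. Of the 9 genes not tested, 4 had no count in any library, and Tdpoz4 with 37, 27 and 1 KO counts and Gm4340 with 70, 1 and 4 were uneven over the KO samples (both named after their values were seen).

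**Figure D3:**
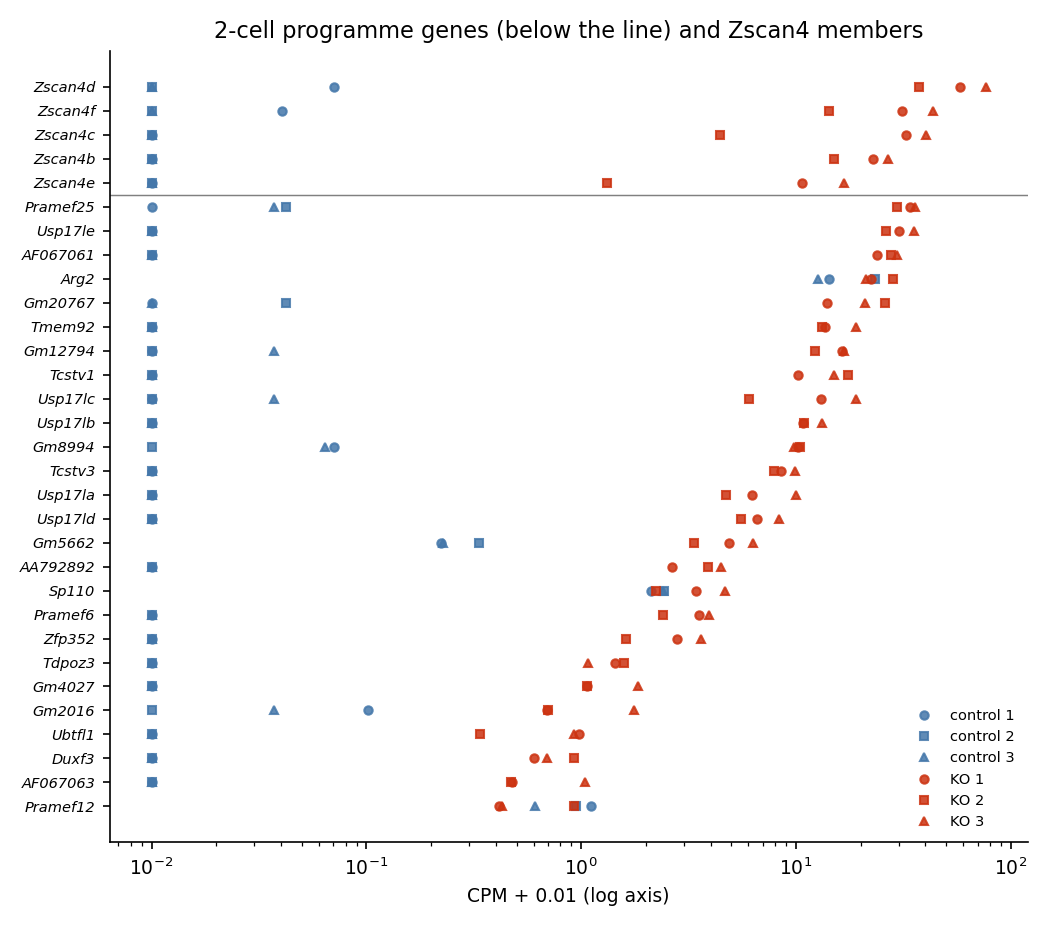
TMM-scaled CPM plus 0.01 (horizontal log axis) of the 5 Zscan4 members, above the line, and the 26 tested genes of the 2-cell programme list, below it, in 3 control (blue) and 3 KO (red) samples. Most control points sit at the floor of 0.01, and the KO points of Zscan4c and Zscan4e spread more widely than those of most listed genes, with KO 2 at 4.43 and 1.31 CPM.

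Genes known to act on Zscan4 or on the 2-cell programme were listed as well. Of 26 listed, 24 were tested, 4 rose and 0 fell, beside 6.36% higher and 8.23% lower over all genes tested, with a median log2 fold change of 0.10. Dppa2, an activator of Dux, rose from 1, 0 and 0 counts to 11, 13 and 19 (log2 fold change 5.16, SE 0.82, edgeR adjusted p = 0.00458). It passed the filter on low counts through its KO counts alone. Its partner Dppa4 had no control count and 3, 0 and 0 in KO samples and was not tested.

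The other 3 increases were small changes in well-read genes that repress the programme. Mga, a subunit of the repressor complex PRC1.6, rose from 89.9 to 137.6 CPM (log2 fold change 0.61, SE 0.12, edgeR adjusted p = 0.011). Zmym2 rose by 0.43 (adjusted p = 0.0318) and Rif1, which restrains Zscan4 in embryonic stem cells, by 0.37 (adjusted p = 0.0333), both log2. The calls for Zmym2 and Rif1 were lost in 8 of 12 alternative settings and that for Mga without KO 1 or without KO 2, while Dppa2 was lost in 1, where it was not tested. Uhrf1, the partner of Dnmt1 at newly copied DNA, did not pass the test (log2 fold change 0.31, adjusted p = 0.0806). In all, 20 of the 24 were not called, Trim28 and Setdb1 among them, which are known repressors of early embryonic genes (both named after their values were seen).

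Genes of telomere maintenance and recombination, the process Zscan4 is known for, were listed too. Of 18 listed, 17 were tested, 2 rose and 0 fell, beside 6.36% and 8.23% over all genes, with a median log2 fold change of 0.24. Pot1a, which binds the single strand of the telomere, had 442 to 734 control counts and 815 to 917 KO counts (log2 fold change 0.81, SE 0.16, edgeR adjusted p = 0.0127). Smc1b, the cohesin subunit of meiosis, rose by 1.46 (SE 0.39, adjusted p = 0.0405), from 15, 16 and 20 counts to 34, 64 and 27. Neither Pot1a nor Smc1b was called without control 1, KO 2 or KO 3.

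Terf1 and Terf2, which coat the telomere repeat, had log2 fold changes of 0.46 and 0.16 and were not called (adjusted p = 0.0775 and 0.464). Dmc1, the recombinase of meiosis, had 13, 41 and 117 control counts against 85, 74 and 48 KO counts and was not called. Spo11, which cuts DNA to start meiotic recombination, had 2 to 28 counts in controls and 2 to 8 in KO samples and was not tested.

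The relatives of Zscan4 elsewhere in the genome, genes for proteins with a SCAN domain, mostly had reads in controls, with 1 of 28 at 0 in all 3. Of 34 listed, 28 were in the count tables, 27 were tested, 4 rose and 0 fell, beside 6.36% and 8.23% over all genes, with a median log2 fold change of 0.29. Zscan10, a factor of embryonic stem cells, rose from 3, 6 and 2 counts to 17, 21 and 23 (log2 fold change 2.61, SE 0.51, edgeR adjusted p = 0.0118). This gene, too, passed the filter on low counts through its KO counts alone. Zfp110, Zfp369 and Zfp445 rose by 0.53, 0.73 and 0.66 on the log2 scale (adjusted p = 0.0189, 0.0249 and 0.0309). The number of relatives called higher was 13 without control 3, 2 without control 2, 0 without KO 3 and 1 without control 1, KO 1 or KO 2. It thus changed with every sample left out, and the cause was not tested.

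**Figure D4:**
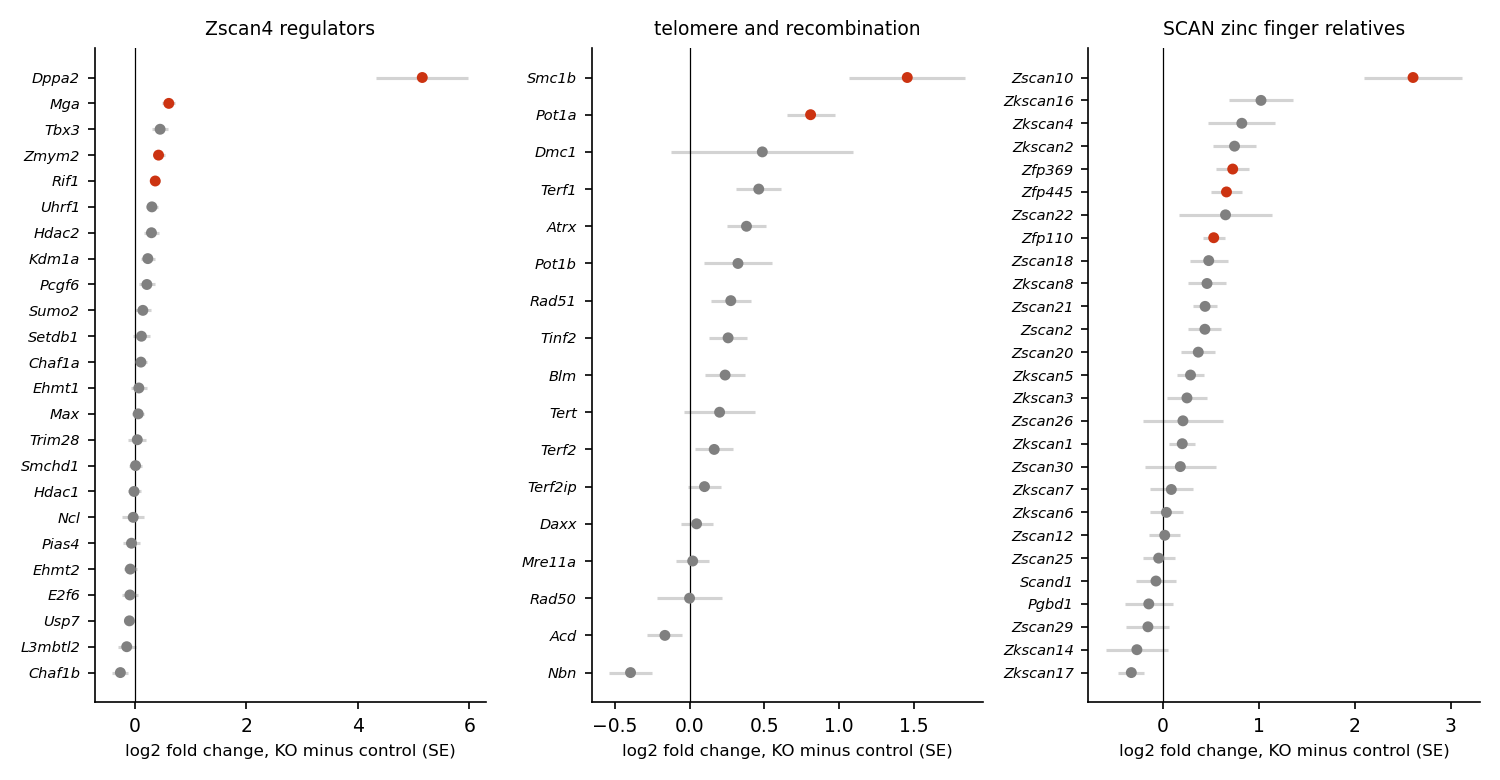
Log2 fold change, KO minus control (horizontal axes, with the standard error from edgeR), of the tested genes of 3 lists: 24 Zscan4 regulators, 17 telomere and recombination genes and 27 SCAN zinc finger relatives. Red points are genes called at an adjusted p under 0.05 and grey points are not called, and Dppa2 (5.16), Zscan10 (2.61) and Smc1b (1.46) lie farthest to the right.

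Of 11 markers of pluripotent cells, 8 were at or near 0 in both groups. Pou5f1 had 0, 0 and 1 counts in controls and 0 in each KO sample, Nanog had 2, 3 and 5 against 3, 2 and 4, and Dppa3 had no count in any library. These 8 reached at most 10 counts in any library. The other 3 were tested, and 1 fell and 0 rose, beside 8.23% lower and 6.36% higher over all genes. Esrrb, which is also a gene of the kidney tubule, fell by 3.51 on the log2 scale (SE 0.38, edgeR adjusted p = 0.000837), and Klf4 and Tfcp2l1 were not called. Summed, the 11 markers gave 272 to 452 CPM per control and 179 to 248 CPM per KO sample, nearly all from Klf4, Tfcp2l1 and Esrrb.

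Markers of germ cells moved with the members. Of 6, 5 rose (Dazl, Stra8, Mael, Tex101 and Ddx4), beside 6.36% called higher over all genes tested. Sycp3 did not pass the test, with 27 to 51 counts in controls and 26 to 35 in KO. Dazl, Stra8, Mael and Tex101, at or near 0 in controls, passed the filter on low counts through their KO counts. The summed level of the 6 markers went from 1.16 to 2.28 CPM per control to 69.4, 63.3 and 104 CPM in the KO samples. Most of it was Dazl, which encodes an RNA-binding protein of germ cells, with 0, 5 and 4 control counts against 2060, 1780 and 2532 KO counts. Their part in the Zscan4 result was not tested.

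Of the adrenal markers, 3 of 4 were tested and 0 called, beside 6.36% called higher and 8.23% lower over all genes tested. The summed adrenal level was 2.86 to 6.58 CPM per control against 4.10 to 4.33 CPM per KO sample. Of the gonad support cell markers 3 of 4 were tested and Sox9 alone rose. Foxl2 had no count in any library, and the summed level was 22.4 to 30.4 CPM per control against 30.8 to 49.4 CPM per KO sample. Kidney markers moved as well. All 4 podocyte, all 4 proximal tubule and both thick limb markers fell, beside 8.23% of all genes tested. Of the 3 collecting duct markers, Calb1 rose (log2 fold change 0.56, edgeR adjusted p = 0.0274), and Aqp2 and Hoxb7 did not pass the test. Of the 6 nephron progenitor markers, Eya1 and Osr1 rose, Cited1 fell, and Six2 did not pass the test (log2 fold change 0.20, adjusted p = 0.741). The part of these shifts in the Zscan4 result was not tested.

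The 10 genes whose values over the 6 RNA samples were most like the summed Zscan4 level were Gm26788, Pdha2, Pramef6, Stox1, Gm43049, AU019990, Scd3, Gm13083, AA623943 and Dpep3. Likeness was Pearson's r of log2(CPM + 1), from 0.9990 to 0.9996. With 3 silent controls the measure mostly reads the gap between the groups, and 134 of 15414 candidate genes were above 0.99 and 480 above 0.95.

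Pdha2, a testis form of a pyruvate dehydrogenase subunit, had no control count and 55, 38 and 49 KO counts. Scd3, a fatty acid desaturase, had 12, 12 and 13 counts in controls and 302, 219 and 318 in KO, a ratio of 25.6 (95% counting interval 18.4 to 36.7). Dpep3, a dipeptidase of the testis, went from 0, 1 and 1 counts to 96, 73 and 97. Stox1, a winged helix factor, differed least, with 49 to 61 counts against 152 to 185, a ratio of 3.47 (2.91 to 4.17). In each of these 4 genes KO 2 was the lowest KO library, which their choice by likeness to the members favours.

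Other genes near the cluster were examined next. RefSeq places 11 other genes in the 300 kb interval, of which 1, Mir297-1, was in the count tables, with 0 counts in every library, and the other 10 were not analysed here. With 1 Mb on either side, 43 other genes were in the count tables, 36 of them at 0 in all 6 libraries. The zinc finger gene Zik1 was the one gene tested, with 443 to 549 counts in controls and 431 to 585 in KO (log2 fold change 0.26, SE 0.18, edgeR adjusted p = 0.415). The pseudogene Gm6900 had 12, 9 and 10 counts in controls and 8, 8 and 11 in KO and was not tested.

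RRBS reads CpG methylation near CCGG sites, and it hardly reached the Zscan4 genes. Of the 182 positions in the interval, 57 had calls in 1 sample alone, 52 had calls in all 9 samples and 21 had at least 10 calls in all 9. No position with a call in any sample lay within 1000 bases of the start of Zscan4b, Zscan4c, Zscan4d or Zscan4f. Within the gene spans there were no positions in Zscan4b, Zscan4c and Zscan4e, 2 in Zscan4d, with 2 calls over the controls, 2 over KO and 1 over the adults, and 1 in Zscan4f, with 1 KO call. Methylation of the promoters of Zscan4b, Zscan4c, Zscan4d and Zscan4f was therefore not measured at any depth. Zscan4e had no promoter entry, so positions near its start were not examined. Interval depth ran from 949 calls in KO 3 to 5295 in control 2.

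In the interval as a whole, CpG methylation was lower in KO than in control kidneys. Over 26 positions with at least 10 calls in all 6 P0 samples, the 3 controls averaged 85.5%, 86.5% and 88.3%, and the 3 KO samples 63.6%, 51.0% and 73.0%. The groups did not overlap, and KO 2 was the lowest. The means were 86.8% ± 1.40 and 62.6% ± 11.0 (SD, n = 3), which is -24.2 points (two-sided exact permutation test, p = 0.1, the lowest that 3 against 3 can give). In the wider interval that takes in Zscan4e and Zscan4f, 42 positions gave -21.8 points.

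The loss in the interval was set beside that of the rest of the genome. At the 16 interval positions with a control mean of at least 80% and 10 calls in all 9 samples, controls had 93.3% ± 0.605, KO samples 67.7% ± 9.71 and adults 88.4% ± 4.595. At the other 139141 autosomal positions of this kind it was 91.6%, 66.6% and 89.2%. The KO difference in the interval departed from that elsewhere by -0.77 points (exact permutation p = 1.0), with KO 3 above the other positions by 9.48 points and KO 1 and KO 2 on the other side, at -1.93 and -4.497 points.

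Single positions were tested with an overdispersed binomial model and called at an adjusted p under 0.05 with at least 10 points of difference. Of 26 tested in the interval, 21 were lower in KO and 0 higher, against 37.4% lower and 0.169% higher of all 380162 positions tested. Most interval positions were highly methylated in controls, and among those with a control mean of at least 80%, 20 of 21 were lower, against 74.6% of 153423 in the genome. All 26 means were lower in KO, with differences of -40.9 to -1.55 points and a median of -25.3. At 18 every KO sample was below every control. Genome shares for these counts are not given here, so they do not set the interval apart. Without KO 2, 13 of the 26 positions were called lower.

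The positions sat in 9 runs of neighbours less than 300 bases apart, and neighbours share reads. In the run of 6 positions from 11123588 to 11123901, control means were 96.5% to 99.6% and KO means 68.8% to 80.4%, and adult means were 88.4% to 96.7%. The largest difference, at 11116556 (named after its value was seen), went from 100% in all 3 controls to 79.5%, 43.3% and 54.6% in KO samples. At 11160309, 1334 bases beyond the 3′ end of Zscan4d, methylation was intermediate in both groups, at 50.0% and 48.5%, and was not called.

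**Figure D5:**
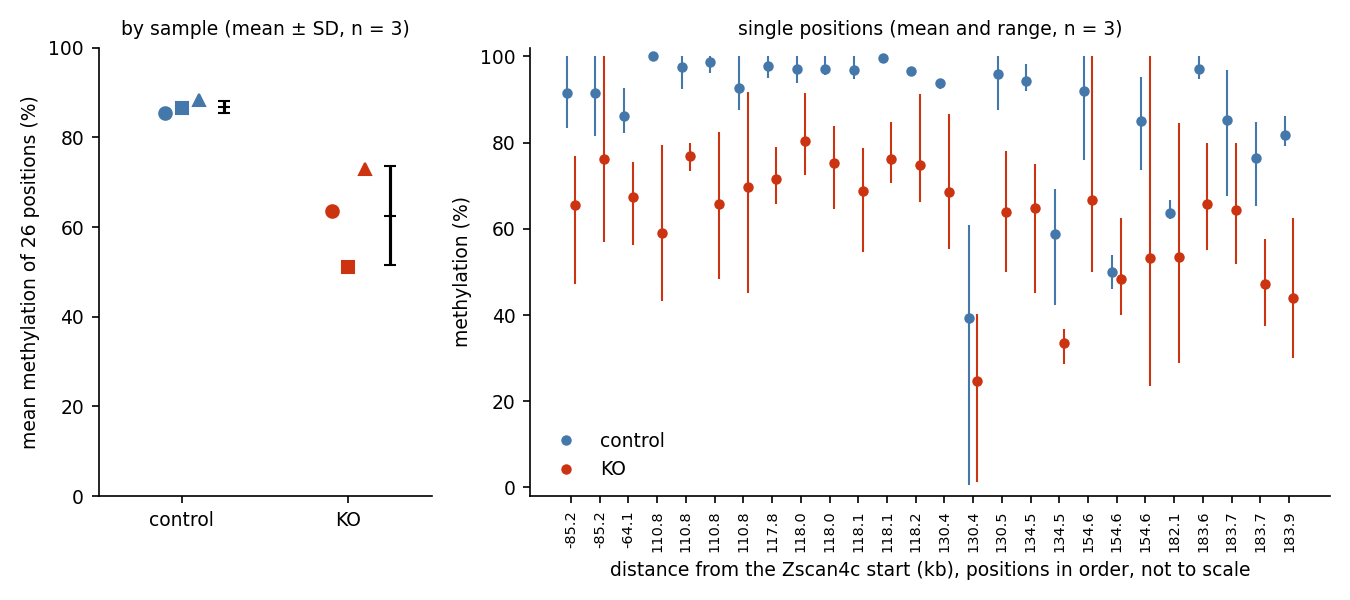
CpG methylation (percent) in the 300 kb interval at the 26 positions with at least 10 calls in all 6 P0 samples: left, the mean of these positions in each sample with the group mean ± SD (n = 3); right, each position with its group mean and range over 3 samples, placed in order and labelled by distance from the start of Zscan4c. Each position has a lower KO mean, and KO samples span wider ranges than controls at most positions.

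The measured positions nearest to the starts of the members were themselves distant. The nearest position with 10 calls in all P0 samples lay 5797 bases from the start of Zscan4d, at 11160351 and 1292 bases beyond its 3′ end, where controls had 86.4%, 95.2% and 73.7% and KO samples 36.4%, 23.5% and 100% (11 to 42 calls each). KO 3 thus went against the other two KO samples there. For Zscan4b the nearest lay 15495 bases from the start, at 10920545, with 91.4% ± 8.35 in controls and 65.5% ± 15.9 in KO. For Zscan4c it lay 64086 bases away, at 10941659, with 86.1% ± 5.77 against 67.5% ± 10.1, and 78.4% ± 8.98 in adults. For Zscan4f it lay 186710 bases away, at 11211205, with 95.4% ± 3.56 against 67.9% ± 1.35.

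Newborn controls (Dnmt1 f/f) and wild-type adults were compared over the same interval. These groups differ in both age and genotype, which cannot be told apart here. Over 30 positions the mean was 86.7% ± 1.20 in controls and 85.7% ± 1.87 in adults (SD, n = 3), or -1.03 points (exact permutation p = 0.6). The value depended on the setting. Weighting by calls gave 3.81 points, and the sign was also positive with a minimum of 5 or of 20 calls and in the wider interval. It was -3.87 points over the 26 positions whose controls spanned at most 30 points, where every adult lay below every control (exact permutation p = 0.1, the lowest possible). The positions left out were chosen on the control values after the data were seen. Without them the control mean went from 86.69% to 89.25% and the adult mean from 85.66% to 85.38%, so this p is not an independent test. Of 30 positions tested, 0 were lower, also among the 24 with a control mean of at least 80% (2.82% of such positions in the genome), and 1 was higher in adults, against 2.34% lower and 2.31% higher of 704580 positions in the genome.

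That 1 position, at 11136135, was uneven in both newborn groups. Controls stood at 0.595%, 56.4% and 60.8%, KO samples at 40.3%, 1.16% and 32.7%, and adults at 95.9%, 96.7% and 94.4%. One control and one KO sample were thus almost unmethylated at a position where all adults were nearly fully methylated. It was among the 4 of these 30 positions whose controls spanned more than 30 points. The RNA and RRBS samples carry the same numbers, but nothing in the labels says that a number names the same animal, so methylation and Zscan4 level were not compared sample by sample.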

How the data were processed

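RNA was measured in 6 samples and RRBS in 9. STAR 2.4.1d, HTSeq 0.6.1, Trim Galore, Bismark and the builds mm10 and GRCm38 are named per the submitters' processing notes. Further settings, strand included, are not given in the sources used here. The authors deposited raw read counts for each gene. Lines for reads assigned to no gene (22.9% to 35.8% of each library) were left out here. The RRBS files deposited by the authors list each position with its percent methylation and its methylated and unmethylated call counts. The call counts were used, and percents recomputed from them.

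Members, lists and tests were chosen with earlier results of these data known. Gene symbols, coordinates and promoters came from RefSeq GRCm38.p6 and the supplied name table, and 46005 of 46517 genes had a symbol. Of 5 members, 4 matched a promoter entry, and Zscan4e did not. RefSeq copies of Zscan4 beyond the 5 members, and the listed symbols Dux, Gm2022 and 6 SCAN genes that did not match the count tables, were not analysed here.

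Gene counts were fitted over all 6 samples with edgeR 4.0.16 in R 4.3.3 (TMM, filterByExpr, quasi-likelihood test, Benjamini-Hochberg adjusted p under 0.05). Standard errors come from its F statistic. Positions where all 6 compared samples reached 10 calls were fitted with a quasi-binomial model in Python 3.11.15 (numpy 2.4.6, scipy 1.17.1). Its dispersion was moderated within 20 classes of coverage and not allowed under 1. Interval means weigh positions equally and were compared by two-sided exact permutation. Both models were tested on simulated data.

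Named genes were the members, the 10 genes most like their summed level with at least 1 CPM in KO, up to 8 called genes of each list by p with a fixed set of well-known members, neighbours with at least 10 counts, and Dnmt1. Not every position or listed gene that the rule takes in is reported. Alternatives were DESeq2 1.42.0, limma 3.58.1 voom, library size scaling, other filters, a replicate block, other call minimums and weights, a wider interval, and each sample left out. Added after seeing the data were 2: runs of neighbouring positions given equal weight, and positions with a wide control range left out. Controls and KO samples share numbers 1 to 3 in the labels, and same-numbered samples did not deviate together (r of -0.236, -0.0653 and -0.124 in RNA, and -0.00413, -0.0064 and 0.00103 in RRBS), so samples were not treated as pairs.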

Additional observations from a re-analysis of the deposited data

How the results depend on the processing

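The summed Zscan4 level in KO was 144.3 CPM with library size alone and 113.8 to 179.2 CPM with a KO sample left out. Genes called higher in all numbered 2442 with limma voom and 678 where every sample needed at least 10 counts, and genes called lower 2595 with limma voom. Leaving out 1 sample gave 647 to 2512 higher, the most without control 3, and 701 to 2561 lower. The 2-cell genes called higher numbered 23 to 25 with 1 sample left out, and 0 where at least 10 counts in every sample were required, a filter that removes genes silent in controls.

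Regulators called higher fell to 2 when scaled by library size alone, also to 2 when low counts were not filtered, and were 1 to 6 with 1 sample left out. Telomere genes came to 5 higher and 1 lower by voom, and to 0 to 4 higher and 0 to 1 lower with 1 sample left out. SCAN relatives came to 7 higher by DESeq2, to 13 higher and 1 lower by voom, and to 0 to 13 higher and 0 to 2 lower with 1 sample left out. Pluripotency genes called lower were 2 with DESeq2, with limma voom and with no filter, and 1 to 2 with 1 sample left out. The cause of these shifts was not tested.

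With the replicate block, regulators called higher were 2, telomere genes 1 and SCAN relatives 1, single interval positions lower in KO 0 and positions higher in adults 0. The numbers gave no sign of pairing, and the block leaves few residual degrees of freedom. The KO difference of the interval with the block was -24.2 points (exact sign-flip permutation p = 0.25, the smallest that 3 pairs allow).

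The KO difference of the interval stayed negative in all 15 alternatives, from -24.9 to -18.5 points with 1 sample left out and -24.6 to -19.7 over the other settings. The adult difference changed sign to 0.168 points with at least 5 calls, 0.0209 with at least 20 calls, 3.81 when weighted by calls and 0.304 in the wider interval. It was -3.27 to -0.129 with 1 sample left out. Without positions whose controls spanned over 30 points, a choice made on the control values, it was -3.87 (p = 0.1 by exact permutation, the lowest possible). With 1 sample left out, single positions lower in KO ran from 13 of 26 tested, without KO 2, to 26 of 38, without KO 3. They were 22 of 42 with at least 5 calls and 25 of 26 with no overdispersion. Positions higher in adults were 0 to 1 (0 without adult 3) and lower in adults 0 to 1 with 1 sample left out. With no overdispersion, 2 were lower in adults. Depth limits the RRBS values, since 21 of 182 interval positions had 10 calls in every sample.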
